A study of Mus musculus with 2 samples.

Results

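The insulin-like growth factor (IGF) genes described here are 9 of the 31054 gene rows that both libraries list: the ligand gene Igf1, the receptor genes Igf1r and Igf2r, and the binding protein genes Igfbp2, Igfbp3, Igfbp4, Igfbp5, Igfbp6 and Igfbp7. They were chosen by symbol, each matched 1 row, and all 9 held UMIs (unique molecular identifiers, counted as RNA molecules) in both libraries. Cells came from the fibroblast isolation of breast tumours in C57BL/6 mice of the genotype inAd-Chaser-mTmG (Adiponectin-rtTA; TRE-Cre; Rosa26RmT/mG), and were sorted as EGFP+ and tdTomato-. In these mice doxycycline switches adiponectin-expressing cells from tdTomato to EGFP, and the mark passes to their descendants. 1 library came from a tumour labelled Met-1 xenograft, called the Met-1 transplant here, and the other from a PyMT tumour, which arose after a cross to mice that carry the PyMT oncogene. The design text of the series names EO771 as the implanted line; the sample label is followed here. The labels give neither the number of mice behind each library nor the dose and time of doxycycline. With 1 library per group no difference has a replicate check, no test was possible, and every interval below is an exact 95% interval that covers counting error only.

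IGF1 is a secreted growth factor that signals for growth and survival through the tyrosine kinase IGF1R. IGF2R, the cation-independent mannose 6-phosphate receptor, carries lysosomal enzymes and takes up IGF2 for degradation without a kinase of its own. The binding proteins are secreted, hold IGFs in the extracellular space, lengthen their life and limit or direct their access to the receptor; IGFBP7 binds IGFs only weakly. Adipocytes, fibroblasts and macrophages are known sources of IGF1 in the mammary gland.

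The Met-1 transplant kept 2119 of 2451 barcodes with a median of 7706 UMIs, and the PyMT tumour kept 589 of 619 with a median of 3470. Cells were placed in classes from marker genes fixed without the 9 genes, where a marker counted from 2 UMIs and a class needed at least 3 markers. The Met-1 transplant held 257 fibroblast-like, 99 mural-like (pericyte and vascular smooth muscle), 28 luminal-like (luminal epithelial or tumour), 704 macrophage-like, 36 neutrophil-like, 308 T-like, 110 NK-like and 233 B-like cells. The PyMT tumour held 11 fibroblast-like, 78 luminal-like, 164 macrophage-like, 154 neutrophil-like, 39 T-like and 25 B-like cells, and 0 mural-like cells. Cells with markers of 2 unrelated classes (110 and 41) and cells of no class (232 and 75) were kept apart. No cell passed as an adipocyte in either library, and 1 unassigned Met-1 cell was 1 marker short. Of the 5 adipocyte markers Adipoq, Cidec and Lep were at 0 UMIs in the fibroblast-like cells of both libraries. Plin1 and Adrb3 had UMIs in the Met-1 fibroblast-like cells, where the list summed to 0.476 CPM, and none in the PyMT ones. The classes are ranges on a marker count: 8 of 257 fibroblast-like and 5 of 28 luminal-like cells of the Met-1 transplant stood at the minimum, and 13 unassigned Met-1 cells were 1 marker short of luminal-like. The gate was weaker for other classes. At the minimum stood 63 of 110 Met-1 NK-like and 35 of 154 PyMT neutrophil-like cells. There 41 and 24 unassigned cells of these libraries were 1 marker short. The libraries shared 0 barcodes.

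Levels are given as CPM, the summed UMIs of a gene in a class per 1000000 UMIs of that class. A gene is called higher or lower when CPM + 10 differed at least 2-fold and at least 1 side held 50 or more UMIs. In the Met-1 transplant, fibroblast-like cells held most of the UMIs of 8 of the 9 genes, and 49.2% of those of Igf2r. Against the other kept cells of that library all 9 were higher in fibroblast-like cells, where 13.8% of the 11396 genes tested were higher and 11% lower. The median log2 ratio was 2.58 over the 9 genes and 0.01 over all genes tested. In the 11 PyMT fibroblast-like cells, 5 of 8 genes tested were higher than in the other cells (Igf1, Igfbp4, Igfbp5, Igfbp6 and Igfbp7) and Igfbp2 was lower, against 8.89% of 7525 genes higher and 27% lower.

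**Figure D1:**
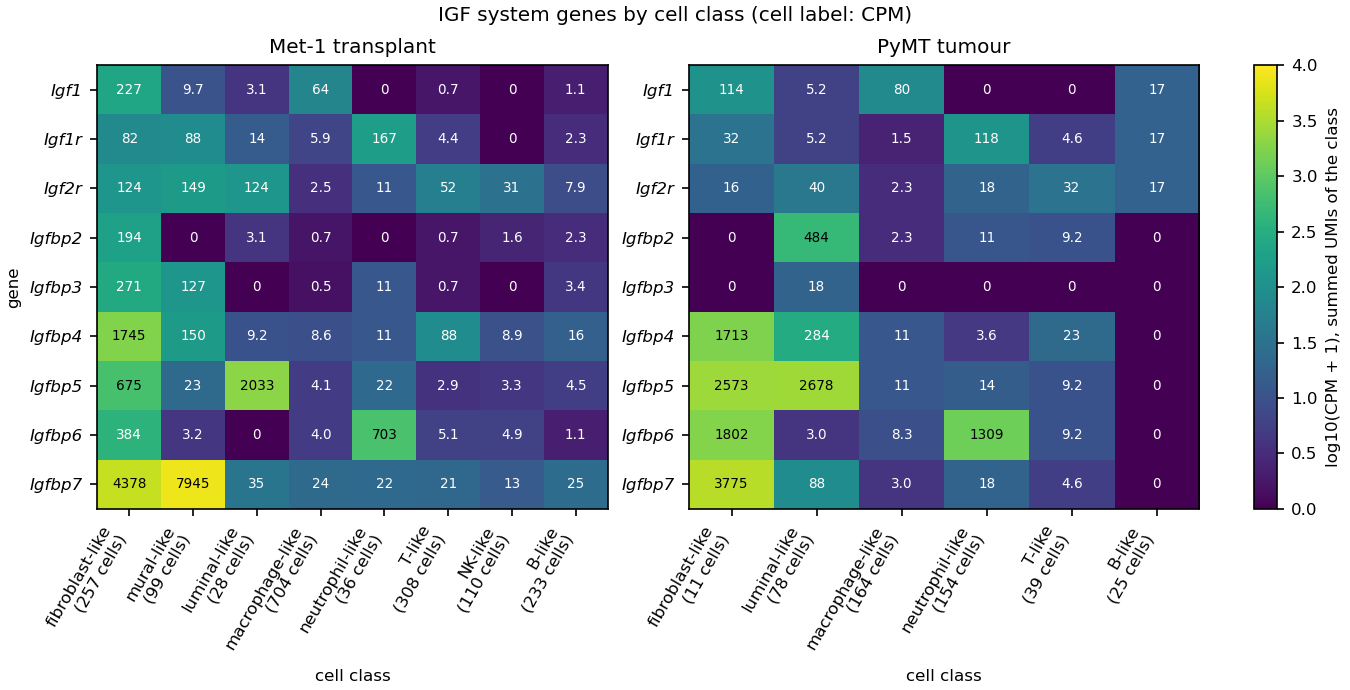
CPM of the 9 genes (rows) in each cell class (columns) of both tumours, with the colour on a log10(CPM + 1) scale and the CPM printed in each cell. Igfbp2 stands at 194 CPM in Met-1 fibroblast-like cells and at 484 CPM in PyMT luminal-like cells, and Igfbp6 is high in fibroblast-like and neutrophil-like cells of both libraries.

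**Figure D2:**
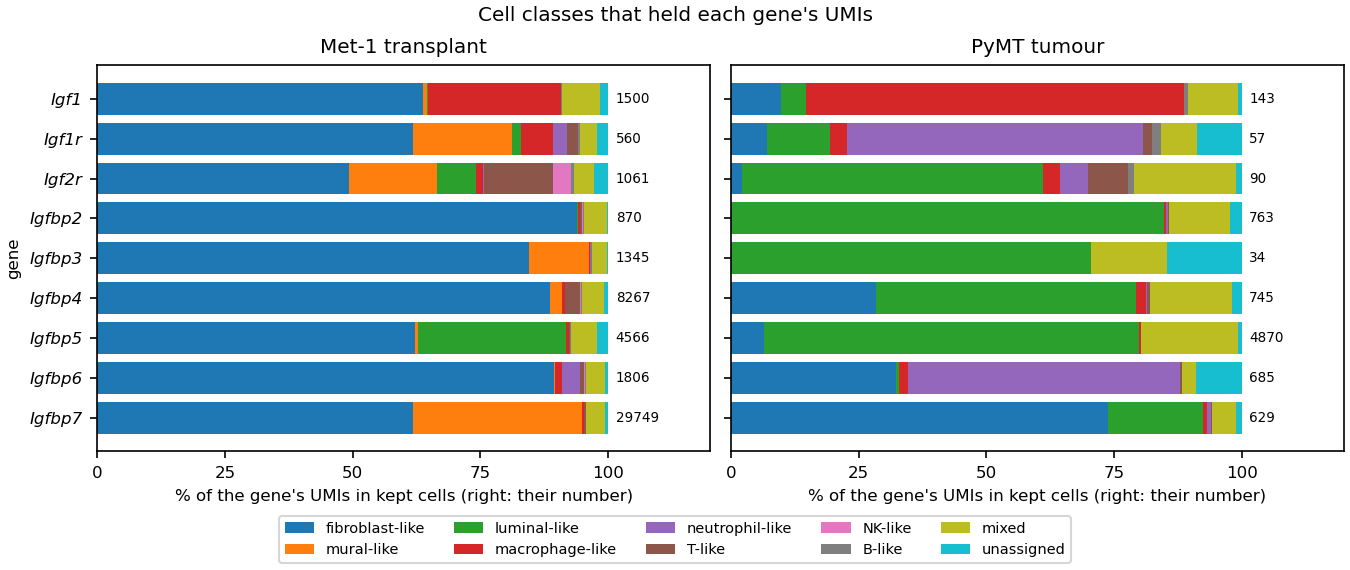
Share of each gene's UMIs in kept cells (horizontal axis, percent) that lay in each cell class, with the number of UMIs at the right of each bar. Fibroblast-like cells held 88.7% of the Igfbp4 UMIs of the Met-1 transplant and 28.3% of those of the PyMT tumour, where luminal-like cells held 51.0%.

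The ligand Igf1 (chr10:87858265-87937042, plus strand, GRCm38) was found in fibroblast-like and macrophage-like cells in both libraries. In the Met-1 transplant it stood at 227 CPM (213 to 242) in fibroblast-like cells, 64.5 CPM (58.2 to 71.2) in macrophage-like cells and 9.72 CPM (5.02 to 17.0) in mural-like cells. Luminal-like, neutrophil-like, T-like, NK-like and B-like cells had at most 2 UMIs per class. In the PyMT tumour fibroblast-like cells had 14 Igf1 UMIs, 7 of them in 1 cell, which gives 114 CPM (62.1 to 191). The 80.3 CPM (65.7 to 97.1) of PyMT macrophage-like cells lay within that interval. Macrophage-like cells held 26.1% of the Igf1 UMIs of the Met-1 transplant and 74.1% of those of the PyMT tumour. An Igf1 UMI was seen in 132 of 704 Met-1 macrophage-like cells (18.8%) at a median of 7635 UMIs per cell. Among T-like cells 2 of 308 (0.649%) held an Igf1 UMI, at a median of 8079.5. The part of RNA from outside the cells in these shares was not tested. At a fixed depth of 1000 UMIs per cell the shares were 5.15% of Met-1 and 9.76% of PyMT macrophage-like cells, against 0 of 308 and 0 of 39 T-like cells.

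Against the other cells of their library, macrophage-like cells were higher in none of the 9 genes and lower in 8 in the Met-1 transplant, where 6.87% of 11519 genes were higher and 12.9% lower. In the PyMT tumour they were higher in Igf1 and lower in the other 7 genes tested, where 7.59% of 6640 genes were higher and 17% lower. Igf1 was the gene not called in the Met-1 transplant. By marker count nearly all macrophage-like cells carried the tissue macrophage set around C1q (684 and 162 cells). All genes of that set are also markers of the class, so the gate itself favours this share. Cycling C1q cells of the Met-1 transplant (49 cells) had Igf1 at 34.0 CPM (21.8 to 50.6) and the other 635 cells at 71.2 CPM (64.1 to 78.9). The PyMT levels were 48.2 CPM (20.8 to 94.9) in 11 cells and 86.1 CPM (69.9 to 105) in 151 cells. Neither ratio was past 2-fold of CPM + 10. In the Met-1 transplant 9 of the 24 Igf1 UMIs of cycling cells lay in 1 cell.

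The kinase receptor gene Igf1r (chr7:67952827-68233668, plus strand) had a different set of carriers. Its Met-1 level was 167 CPM (93.6 to 276) in neutrophil-like cells, 88.3 CPM (72.5 to 107) in mural-like cells and 82.3 CPM (73.9 to 91.5) in fibroblast-like cells, and these 3 intervals met in order. Luminal-like cells had 13.8 CPM with 6 of 9 UMIs in 1 cell, macrophage-like cells 5.94 CPM (4.16 to 8.22), and the 110 NK-like cells 0 UMIs, which allows up to 2.44 CPM. In the PyMT tumour neutrophil-like cells again led, with 118 CPM (81.2 to 166) from 33 UMIs in 27 of 154 cells. Fibroblast-like cells there had 4 UMIs in 4 of 11 cells (32.5 CPM, 8.85 to 83.1). At 1000 UMIs per cell an Igf1r UMI was seen in 16.1% of Met-1 and 14.2% of PyMT neutrophil-like cells, and in 0.572% and 0.61% of macrophage-like cells. Neutrophil-like cells were shallow, with a median of 2586 and 1641.5 UMIs.

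Igf2r (chr17:12682406-12769664, minus strand) was shared by the stromal and luminal classes. Mural-like cells had 149 CPM (128 to 172), luminal-like cells 124.4 CPM (98.8 to 155) and fibroblast-like cells 124.2 CPM (114 to 135) in the Met-1 transplant, with intervals that met. T-like cells had 52.0 CPM (43.8 to 61.2) with UMIs in 94 of 308 cells, and NK-like cells had 30.9 CPM (21.9 to 42.4). Macrophage-like cells had 2.47 CPM (1.38 to 4.08), with 15 UMIs in 704 cells. PyMT luminal-like cells stood at 39.7 CPM (29.7 to 51.9) and T-like cells at 32.3 CPM (13.0 to 66.6), and macrophage-like cells at 2.27 CPM. Both PyMT fibroblast-like Igf2r UMIs lay in 1 cell.

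Ligand and receptor genes were also read in the same cells. Among the 160 myofibroblastic fibroblast-like cells described below, 69 had a UMI of both Igf1 and Igf1r, 31 of Igf1 alone, 45 of Igf1r alone and 15 of neither. Mural-like cells had Igf1r in 64 of 99 cells and Igf1 in 9. Macrophage-like cells of the Met-1 transplant had Igf1 in 132 and Igf1r in 32 of 704 cells.

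Fibroblast-like cells were split into states by 3 further marker lists that do not hold the 9 genes. In the Met-1 transplant 55 cells fell in a progenitor state, 22 in a state marked by Gdf10 and its list, 160 in a myofibroblastic state and 20 in none. The progenitor list summed to 11301 CPM in the first, 6908 CPM in the second and 91.8 CPM in the third, and the myofibroblastic list to 1431, 2261 and 16400 CPM. The Gdf10 list summed to 494, 3286 and 1157 CPM, so in the Gdf10 state it was below the progenitor list. Mural markers summed to 105, 177 and 460 CPM in these states. The median depth was 13684, 16252 and 18213.5 UMIs. Progenitor fibroblasts of this kind (Pi16, Dpp4) are known from the adventitia of many tissues, and myofibroblastic cells as contractile producers of collagen.

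The states split the binding protein genes into opposite sets. Compared with the myofibroblastic state, Igfbp5 and Igfbp6 were higher in the progenitor state, and Igfbp2, Igfbp3 and Igfbp7 were lower. Of all 6937 genes tested 5.25% were higher and 10.1% lower. Igf1, Igf1r, Igf2r and Igfbp4 were not past 2-fold, with log2 ratios of 0.40, -0.43, -0.42 and -0.81. The 250 bases before the RefSeq start of Igfbp5, Igfbp6, Igfbp2 and Igfbp3 are shown to let the 4 upstream windows be compared.

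Igfbp5 (chr1:72874866-72875115, minus strand): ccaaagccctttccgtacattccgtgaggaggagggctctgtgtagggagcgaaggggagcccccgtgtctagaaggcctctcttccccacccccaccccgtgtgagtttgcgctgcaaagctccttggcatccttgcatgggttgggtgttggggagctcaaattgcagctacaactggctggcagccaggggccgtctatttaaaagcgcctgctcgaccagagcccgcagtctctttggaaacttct
Igfbp6 (chr15:102143936-102144185, plus strand): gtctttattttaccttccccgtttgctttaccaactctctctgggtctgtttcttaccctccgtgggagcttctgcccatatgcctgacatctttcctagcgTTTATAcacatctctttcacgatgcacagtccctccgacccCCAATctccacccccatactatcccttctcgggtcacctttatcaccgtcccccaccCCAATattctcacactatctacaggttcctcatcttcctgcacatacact
Igfbp2 (chr1:72824230-72824479, plus strand): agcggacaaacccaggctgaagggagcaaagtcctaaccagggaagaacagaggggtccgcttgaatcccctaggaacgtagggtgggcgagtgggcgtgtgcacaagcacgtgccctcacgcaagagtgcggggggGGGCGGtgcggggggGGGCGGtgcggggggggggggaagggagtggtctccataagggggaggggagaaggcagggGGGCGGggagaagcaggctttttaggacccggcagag
Igfbp3 (chr11:7213924-7214173, minus strand): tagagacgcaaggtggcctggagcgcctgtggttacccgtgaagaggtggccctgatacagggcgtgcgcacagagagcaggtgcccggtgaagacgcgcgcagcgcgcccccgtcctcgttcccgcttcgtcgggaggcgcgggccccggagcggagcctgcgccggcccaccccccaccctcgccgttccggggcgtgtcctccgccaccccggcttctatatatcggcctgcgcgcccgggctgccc

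The windows are RefSeq sequence of build GRCm38.p6, 5′ to 3′ in the direction of the gene, and all 9 genes matched an entry. Where a gene has several RefSeq starts, the most upstream was used. RefSeq starts can differ from those of GENCODE, which gives the gene coordinates: the Igfbp5 window reaches into the GENCODE gene, and the Igfbp6 and Igfbp2 windows end before its start. Capitals mark exact matches on either strand to 4 motifs, of which none overlaps another in these windows. Of 27025 upstream windows of this length, 12.98% hold the TATA box letters TATAAA and 32.96% hold the GC box letters GGGCGG. The CCAAT box, CCAAT, is in 34.53%, and the AP-1 site, TGANTCA, in 6.853%. Igfbp6 holds 1 match to TATAAA on the other strand and 2 to CCAAT, Igfbp2 holds 3 to GGGCGG, and Igfbp5 and Igfbp3 hold none of these letters. The GC content is 58.8% for Igfbp5, 49.6% for Igfbp6, 67.2% for Igfbp2 and 73.2% for Igfbp3, against a median of 52% over all windows. They hold 10, 7, 14 and 32 CpG dinucleotides, against a median of 6. The window of Igfbp7, which is not shown, has 74% GC, 26 CpG dinucleotides and 4 matches to GGGCGG. A match is a run of letters and not evidence of a bound factor.

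Igfbp5 (chr1:72857932-72874884, minus strand) codes for a binding protein that also attaches to the extracellular matrix. It stood at 2783 CPM (2669 to 2901) in the progenitor state, 170 CPM (155 to 186) in the myofibroblastic state and 139 CPM (102.5 to 184) in the Gdf10 state, a progenitor level 16.4-fold (14.9 to 18.1) above the myofibroblastic one. Cells of the progenitor state differed widely among themselves: 41 of 55 had a UMI, the median was 807 CPM and the quartiles were 25.1 and 4922 CPM. In the myofibroblastic state 38 of 160 cells had a UMI, and in the Gdf10 state 6 of 22.

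Igfbp6 (chr15:102144362-102149511, plus strand) codes for the binding protein known for its preference for IGF2. It stood at 1366 CPM (1287 to 1449) in the progenitor state, 576 CPM (499 to 662) in the Gdf10 state and 96.2 CPM (85.4 to 108) in the myofibroblastic state. The progenitor level was 14.2-fold (12.5 to 16.2) the myofibroblastic level. Unlike Igfbp5 it was found in nearly every progenitor cell, 53 of 55, with a median of 1268 CPM. Of the 55 cells 40 held UMIs of both genes, 13 of Igfbp6 alone and 1 of Igfbp5 alone. Between the progenitor and Gdf10 states, where 7.36% of 2431 genes tested were higher and 3.17% lower, both genes were higher in the progenitor state, Igfbp5 by 15.1-fold to 27.2-fold and Igfbp6 2.37-fold (2.04 to 2.77).

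Igfbp2 (chr1:72824503-72852474, plus strand) and Igfbp3 (chr11:7206086-7213923, minus strand), the latter the main carrier of IGFs in blood, made the opposite pole. Igfbp2 stood at 270 CPM (252 to 289) in the myofibroblastic state, 49.2 CPM (28.7 to 78.8) in the Gdf10 state and 2.48 CPM (0.30 to 8.96) in the progenitor state. Of the 17 Gdf10-state UMIs 16 lay in 1 cell, and the 55 progenitor cells held 2 UMIs. Igfbp3 stood at 373 CPM (352 to 396), 40.5 CPM (22.2 to 68.0) and 21.1 CPM (12.3 to 33.8) in the same order. The myofibroblastic level of Igfbp3 was 17.7-fold (11.0 to 30.5) the progenitor level, and that of Igfbp2 109-fold, with a counting interval of 30.02 to 900.1.

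Within the myofibroblastic state Igfbp2 was patchy. 65 of 160 cells held a UMI, and where present its median was 347 CPM. Igfbp3 was seen in 113 cells, and 58 of the 65 cells with Igfbp2 also held Igfbp3. A further 55 cells held Igfbp3 alone and 40 neither.

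Igfbp2 and Igfbp5 are neighbours on chromosome 1. They face each other, with 5457 bases and no annotated gene between their ends. In fibroblast-like cells their levels were highest in opposite states, and cells with both genes were not counted there. Of the PyMT luminal-like cells 45 of 78 held both, 28 Igfbp5 alone, 2 Igfbp2 alone and 3 neither. Nearly all of these luminal-like cells held Igfbp5, so most cells with Igfbp2 would hold both without any link between the genes.

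Igfbp4 (chr11:99041244-99054392, plus strand), whose product is cut by the protease PAPP-A to release IGF, was found across all 3 states. It stood at 2478 CPM (2315 to 2650) in the Gdf10 state, 1878 CPM (1829 to 1928) in the myofibroblastic state and 1067 CPM (997 to 1141) in the progenitor state. UMIs were seen in 20 of 22, 151 of 160 and 45 of 55 cells. Outside fibroblasts the Met-1 transplant had Igfbp4 at 150 CPM (129 to 173) in mural-like cells and at 88.0 CPM (77.2 to 99.8) in T-like cells. The T-like level came from 81 of 308 cells. At 1000 UMIs per cell an Igfbp4 UMI was seen in 8.44% of T-like cells and 0.286% of macrophage-like cells. The part of RNA from outside the cells in these shares was not tested.

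The Gdf10 state also had the highest Igf1, 599 CPM (520 to 687), against 237 CPM (205 to 273) in the progenitor and 177 CPM (163 to 193) in the myofibroblastic state. 18 of its 22 cells held an Igf1 UMI, with a median of 562 CPM per cell, while the medians of the other states were 95.8 and 78.0 CPM. Compared with the myofibroblastic state the Gdf10 state was higher in Igf1 (3.38-fold, 2.86 to 3.97) and Igfbp6 (5.99-fold, 4.97 to 7.20) and lower in Igfbp2 and Igfbp3. Of 6857 genes tested 3.33% were higher and 9.79% lower there. Compared with the Gdf10 state the progenitor state was lower in Igf1, Igfbp4 and Igfbp7. The ratios of the Gdf10 state were not recomputed under other settings.

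**Figure D3:**
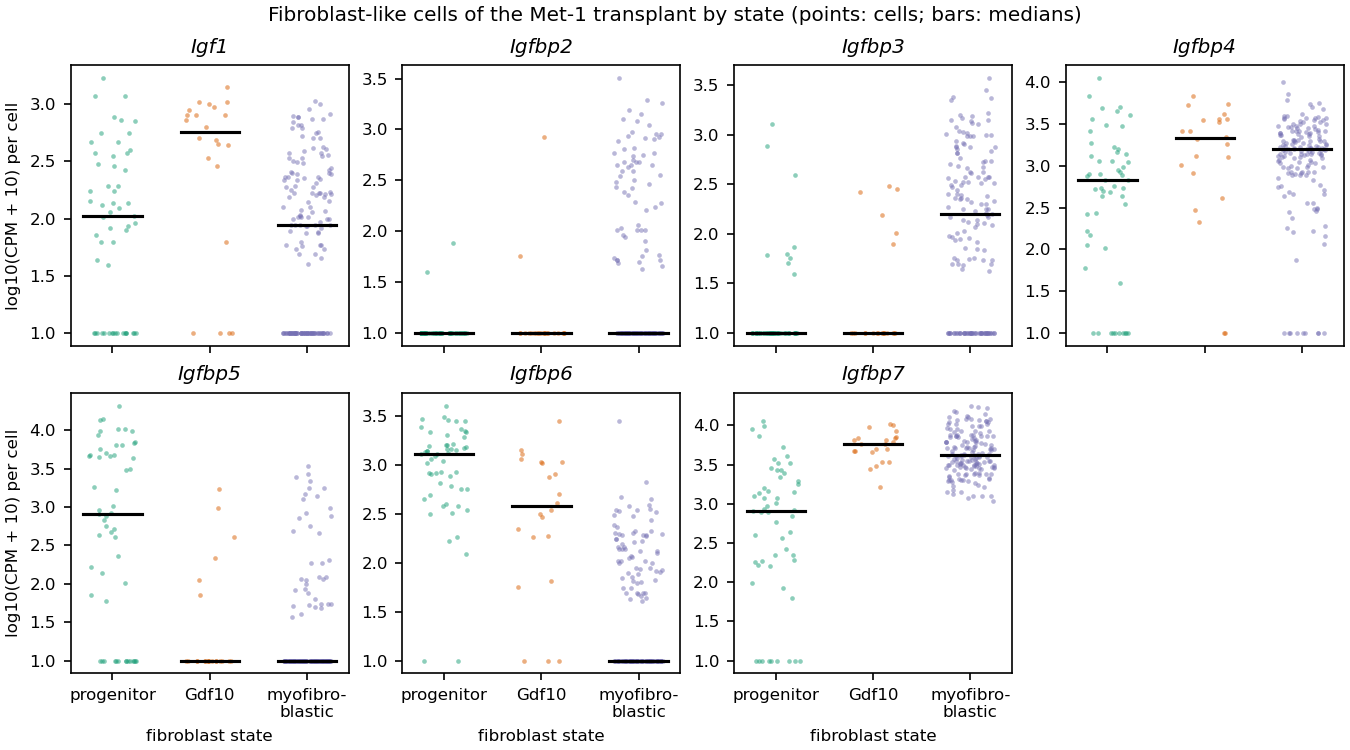
Level of 7 genes in each Met-1 fibroblast-like cell by state (points are cells, bars are medians, the vertical axis is log10(CPM + 10) and its range differs between panels; cells without a UMI lie at 1). Igfbp6 is present in 53 of 55 progenitor cells, Igfbp2 and Igfbp3 are mostly present in myofibroblastic cells, and Igf1 has its highest median in the Gdf10 state.

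Igfbp7 (chr5:77349240-77408041, minus strand), a matrix protein of vessel walls, was carried by all 99 mural-like cells, at 7945 CPM (7789 to 8104), against 4378 CPM (4315 to 4441) in fibroblast-like cells. Within fibroblast-like cells the Gdf10 state had 5677 CPM (5429 to 5934), the myofibroblastic state 4974 CPM (4894 to 5055) and the progenitor state 1424 CPM (1343 to 1509), where it was seen in 46 of 55 progenitor cells and in every cell of the other 2 states. Luminal-like and all 5 immune classes of that library stood between 13.0 and 35.3 CPM, with intervals that met between neighbours.

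Mural-like cells otherwise carried few of the binding protein genes. Compared with all other kept cells of the library, 3 of 9 genes were higher in mural-like cells (Igf1r, Igf2r and Igfbp7) and 5 lower (Igf1, Igfbp2, Igfbp4, Igfbp5 and Igfbp6), where 8.06% of 11710 genes were higher and 10.5% lower. Igfbp2 had 0 UMIs in 99 cells, and the fibroblast-like level was 80.0-fold that of 3 counts (2.43 CPM). The exact interval of the mural-like level ends at 2.99 CPM. Igfbp6 had 4 UMIs and Igfbp5 29, 21 of these in 1 cell. Igfbp3 stood at 127 CPM (108 to 149), but 80 of its 157 UMIs lay in 1 cell and 20 of 99 cells held it. Compared directly with mural-like cells, fibroblast-like cells were higher in 6 of 9 genes (Igf1, Igfbp2, Igfbp3, Igfbp4, Igfbp5 and Igfbp6) and lower in none, against 7.79% of 8053 genes higher and 3.81% lower. Fibroblast markers summed to 38997 CPM in fibroblast-like cells and 9250 CPM in mural-like cells (all 10 with UMIs in both), and mural markers to 390 and 9610 CPM. Clustering at a coarse setting joined most myofibroblastic cells with the mural-like cells. In the 85 cells left in the fibroblast cluster, Igfbp2 and Igfbp3 were lower than in the other cells (log2 of CPM + 10 of -2.17 and -1.30).

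The number of binding protein genes per cell differed between classes. Of the 6, Met-1 fibroblast-like cells held a median of 4, mural-like cells 2, PyMT luminal-like cells 3, and macrophage-like and T-like cells 0. At 1000 UMIs per cell 32.4% of fibroblast-like cells and 6.49% of PyMT luminal-like cells still held at least 3, and no mural-like cell did.

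Luminal-like cells carried Igfbp5 in both tumours. Igfbp5 stood at 2033 CPM (1925 to 2146) in 28 Met-1 cells and 2678 CPM (2591 to 2767) in 78 PyMT cells, with UMIs in 24 and 73 cells. The per-cell medians were 2075 and 2512 CPM. The ratio of the Met-1 to the PyMT level was 0.759 (0.712 to 0.809), which is not past 2-fold. 1 Met-1 cell held 300 of the 1324 UMIs. Igfbp5 and Igf2r were higher in luminal-like cells than in the rest of the Met-1 transplant and 6 genes were lower, against 7.11% of 11766 genes higher and 15% lower. In the PyMT tumour Igf2r, Igfbp2, Igfbp4 and Igfbp5 were higher and Igf1 and Igfbp6 lower of 8 tested, against 10.6% of 6309 genes higher and 16.9% lower.

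Between the libraries luminal-like cells differed in Igfbp2 and Igfbp4 among others. Of 5 genes tested 1 was higher in the Met-1 transplant and 3 were lower, against 6.19% of 3747 genes higher and 8.01% lower. Igfbp2 had 2 UMIs, both in 1 of 28 Met-1 cells, and 647 UMIs in 47 of 78 PyMT cells (484 CPM, 448 to 523). The PyMT level was 158-fold that of the Met-1 transplant, with a counting interval of 43.5 to 1305. Igfbp4 had 6 UMIs in 3 Met-1 cells and 380 UMIs in 44 PyMT cells (284 CPM, 257 to 315), a PyMT level 30.9-fold (14.1 to 84.7) higher. The PyMT luminal-like cells had a median of 17164 UMIs and the Met-1 cells 10597. At 1000 UMIs per cell an Igfbp2 UMI was seen in 25 of 77 PyMT and 0 of 28 Met-1 cells.

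Igfbp7 was also lower in Met-1 luminal-like cells, 35.3 CPM (22.4 to 53.0) against 87.6 CPM (72.4 to 105). This direction turned (log2 of CPM + 10 of 1.03) when cells with markers of 2 classes were added, which gave 29 Met-1 and 93 PyMT cells. Igf2r was higher, 124.4 against 39.7 CPM (3.13-fold, 2.19 to 4.52), with 21 of its 81 Met-1 UMIs in 1 cell. Igfbp3 had 0 UMIs in Met-1 and 24 UMIs in PyMT luminal-like cells, 16 of them in 1 cell. The luminal-like class can hold tumour cells, which come from the implanted line in 1 tumour and from the mouse's own gland in the other, so line and tumour model cannot be told apart.

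Fibroblast-like cells were compared between the libraries on 257 Met-1 cells and only 11 PyMT cells with 123188 UMIs, where 50 UMIs of a gene are needed on 1 side alone. 4 of 9 genes were higher in the Met-1 transplant (Igf1r, Igf2r, Igfbp2 and Igfbp3) and 2 lower (Igfbp5 and Igfbp6), against 21.6% of 7986 genes higher and 5.11% lower. Genes with 50 UMIs in both libraries had a median log2 ratio of -0.42. Relative to that shift the log2 ratios were 1.54 for Igf1r, 2.77 for Igf2r, -1.50 for Igfbp5 and -1.79 for Igfbp6. Igf1 was not past 2-fold as it stood (log2 of CPM + 10 of 0.94) but was when the shift was taken off (1.36) or when the cell with most UMIs was left out on each side (1.65).

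Igfbp2 and Igfbp3 had 817 and 1138 UMIs in the Met-1 fibroblast-like cells and 0 in the 11 PyMT cells, which allows up to 24.4 CPM. Set against that level of 3 counts, Igfbp2 was at least 7.98-fold and Igfbp3 at least 11.1-fold higher in the Met-1 transplant, and the exact intervals of the ratios start at 6.48 and 9.03. In the 85 Met-1 cells of the coarse fibroblast cluster the log2 ratio of CPM + 10 was 0.32 for Igfbp2 and 1.71 for Igfbp3, where neither gene reached 50 UMIs, so neither was called. Igf1r was under 2-fold there (0.85) and in the clusters at resolution 1 (0.94). Igf2r had 522 against 2 UMIs, a ratio of 7.65 (2.11 to 63.3), and Igf1r 346 against 4, a ratio of 2.53 whose interval (0.981 to 9.36) includes no difference. Igfbp4 stood at 1745 and 1713 CPM, a ratio of 1.02 (0.888 to 1.17), with 89 of the 211 PyMT UMIs in 1 cell. Igfbp7 stood at 4378 and 3775 CPM, with 176 of the 465 PyMT UMIs in 1 cell.

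Igfbp5 and Igfbp6 were lower in the Met-1 transplant, at 675 against 2573 CPM (ratio 0.262, 0.234 to 0.296) and at 384 against 1802 CPM (ratio 0.213, 0.185 to 0.246). Neither was past 2-fold in the coarse clusters, with log2 ratios of -0.40 and -0.62. The part of the fibroblast states in this difference was not tested. In the PyMT tumour 6 of the 11 cells were in the progenitor state and 4 in the myofibroblastic state. In the Met-1 transplant these were 55 and 160 of 257 cells. This split rests on the marker gate: clusters at resolution 1 placed all 11 PyMT cells with the progenitor state, and the coarse clusters placed 9 there, 2 with the Gdf10 state and 0 with the myofibroblastic state. Within the progenitor state the ratios were 0.652 (0.579 to 0.737) for Igfbp5 and 0.632 (0.534 to 0.752) for Igfbp6, not past 2-fold. There 17.2% of 2414 genes were higher and 4.43% lower, and of the 7 genes tested Igf1 and Igf2r were higher on 3 and 2 PyMT UMIs. The 6 PyMT progenitor cells held 3, 27, 82, 72, 0 and 124 Igfbp5 UMIs and 1, 15, 20, 39, 18 and 63 Igfbp6 UMIs. The 4 PyMT myofibroblastic cells held 0, 0, 0 and 8 Igfbp5 UMIs, a level of 198 CPM (85.3 to 389) against 4267 CPM (3804 to 4772) in the PyMT progenitor cells. Their Igfbp6 UMIs were 16, 9, 5 and 25, a level of 1358 CPM (1023 to 1768) in 4 cells against 96.2 CPM in the 160 Met-1 cells of that state. No mural-like cell was seen in the PyMT tumour (0 of 589, which allows up to 0.509% at 3 counts, with an exact interval that ends at 0.624%), so mural-like cells were not compared.

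Macrophage-like cells had Igf1 in both libraries, at 64.5 and 80.3 CPM (ratio 0.803, 0.646 to 1.005), not past 2-fold. Of 3 genes tested 1, Igfbp7, was called, higher in the Met-1 transplant (143 against 4 UMIs, 23.6 and 3.03 CPM), against 5.96% of 7954 genes higher and 1.13% lower. The 23.6 CPM lay within the 13.0 to 24.9 CPM of the other immune classes of that library, and at 1000 UMIs per cell an Igfbp7 UMI was seen in 2.58% of macrophage-like and 2.6% of B-like cells. The part of RNA from outside the cells in this difference was not tested. Over all kept cells Igfbp7 was 10.2-fold (9.43 to 11.1) higher in the Met-1 transplant.

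**Figure D4:**
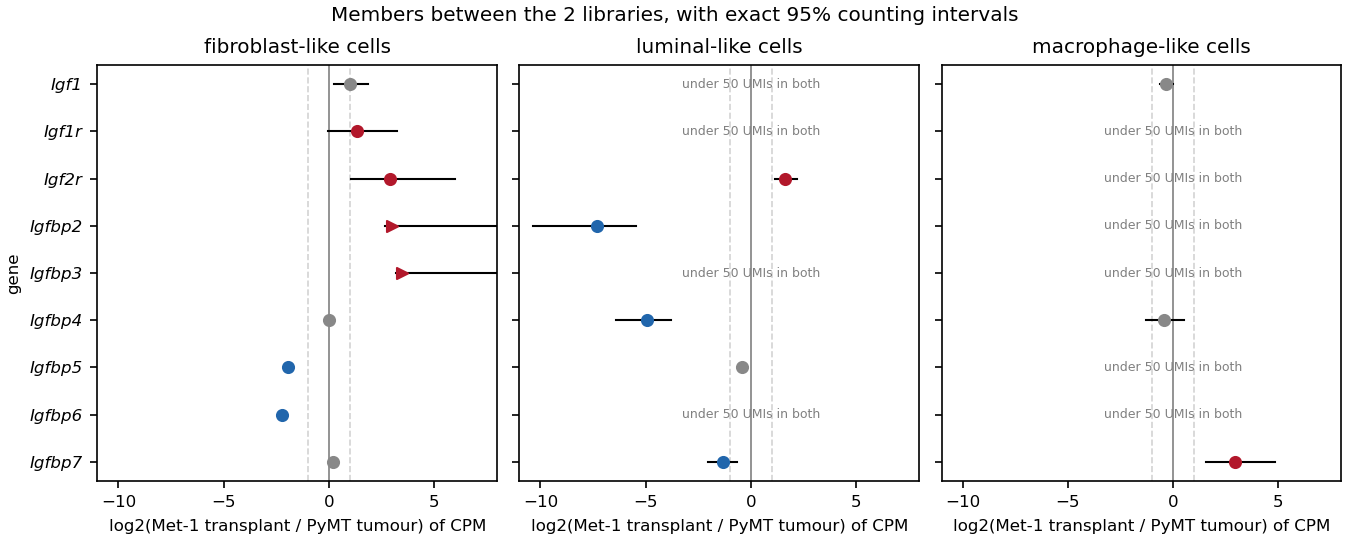
log2 ratio of CPM (Met-1 transplant over PyMT tumour, horizontal axis) for each gene in 3 cell classes, with exact 95% counting intervals as lines. Red and blue points are at least 2-fold of CPM + 10 apart, grey points are not, and the triangles for Igfbp2 and Igfbp3 in fibroblast-like cells are lower bounds because the 11 PyMT cells held 0 UMIs.

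Neutrophil-like cells carried Igfbp6 in both tumours. It stood at 703 CPM (540 to 899) in 36 Met-1 cells and 1309 CPM (1178 to 1450) in 154 PyMT cells, and UMIs were seen in 19 and 115 cells. Macrophage-like cells of the same libraries had 3.96 and 8.33 CPM. At 1000 UMIs per cell 38.7% and 62.8% of neutrophil-like cells held an Igfbp6 UMI, against 0.715% and 0.61% of macrophage-like cells. PyMT neutrophil-like cells held 53.4% of all Igfbp6 UMIs and fibroblast-like cells 32.4%. Compared with the other cells of the Met-1 transplant, neutrophil-like cells were higher in Igf1r and Igfbp6 and lower in the other 7 genes (7.32% of 11870 genes higher, 35.2% lower). In the PyMT tumour they were higher in Igfbp6 and lower in 5 of 7 genes tested (8.72% of 7488 genes higher, 37.4% lower). Igf1r, at 118 CPM from 33 UMIs in PyMT neutrophil-like cells, was under the 50 UMIs needed and not tested there. In neutrophil-like cells fibroblast markers summed to 301 CPM in the transplant and to 28.6 CPM in the PyMT tumour, with Dcn, the gene of the matrix protein decorin, at 0 UMIs in the latter. Between the libraries Igfbp6 had a ratio of 0.537 (0.404 to 0.703), not past 2-fold, with 802 genes tested (5.11% higher, 17.2% lower). It was past 2-fold when the cell with most UMIs was left out on each side (log2 of CPM + 10 of -1.07).

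T-like cells were higher in the Met-1 transplant in 2 of 3 genes tested, Igfbp4 and Igfbp7, against 9.87% of 5329 genes higher and 2.91% lower. Igfbp4 had 242 against 5 UMIs (ratio 3.81, 1.61 to 11.8). Igfbp7 had 59 against 1 UMI, and its interval (0.802 to 186) includes no difference. The Met-1 T-like level of 21.5 CPM also lay within the 13.0 to 24.9 CPM of the immune classes. Igf2r was not past 2-fold (143 against 7 UMIs).

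Summed over all kept cells 4 of 9 genes were higher in the Met-1 transplant (Igf2r, Igfbp3, Igfbp4 and Igfbp7) and 2 lower (Igfbp2 and Igfbp5), against 7.05% of 11993 genes higher and 3.61% lower. In such sums more cells of a class and more RNA per cell cannot be told apart. Igfbp5 stood at 229 CPM and 1134 CPM. Luminal-like cells held 29.0% of its UMIs in the Met-1 transplant and 73.4% in the PyMT tumour, and they made up 28 of 2119 and 78 of 589 cells.

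Of the other 34 genes of the IGF pathway, Igf2, the fetal ligand, and the genes Ins1, Ins2, Igfbp1 and Igfbpl1 had 0 UMIs in the kept cells of both libraries. Insr, the insulin receptor, stood at 23.6 CPM in Met-1 fibroblast-like cells with 99 UMIs and at 0 UMIs in the 11 PyMT ones, which allows up to 24.4 CPM, so a difference was not detectable at this depth. Of 22 pathway genes tested in Met-1 fibroblast-like cells against the rest, 8 were higher and 0 lower, against 13.8% and 11% of all genes tested, with a median log2 ratio of 0.58. They were Ghr, the growth hormone receptor, at 106 CPM, its feedback inhibitor Socs2 at 136 CPM, the protease Pappa at 16.4 CPM with its inhibitor Stc2 at 31.6 CPM, the protease Htra1 at 262 CPM, the adaptors Irs1 at 34.7 CPM and Grb10 at 89.5 CPM, and the kinase Akt2 at 63.5 CPM. Of the 73 Pappa UMIs in the library 69 lay in fibroblast-like cells, 63 of them in the myofibroblastic state.

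In mural-like cells 7 of 22 pathway genes were higher and 0 lower, against 8.06% and 10.5% of all genes tested. Among them were Htra1 (361 CPM), Stc1, which inhibits PAPP-A as STC2 does (40.5 CPM, 50 of 55 UMIs of the library), Irs1 (27.5 CPM), Shc1 (86.7 CPM), Gab1 (71.3 CPM) and Pik3ca (117 CPM). Of the 22, luminal-like cells of the Met-1 transplant were higher in 2, Socs2 (124 CPM) and Pik3r1 (611 CPM), and lower in 2, Htra1 and Akt2. Of all genes tested there 7.11% were higher and 15% lower. Luminal-like cells of the PyMT tumour were higher in 2 of 12 tested, Ghr (44.9 CPM) and Socs2 (98.1 CPM), and lower in 0. The shares of all genes tested there were 10.6% and 16.9%. Met-1 macrophage-like cells were higher in none of the 22 and lower in 8, against 6.87% and 12.9% of all genes tested, among them Ghr, Socs2, Htra1, Stc2, Irs1, Grb10 and Foxo1.

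The pathway genes also split by fibroblast state. Of 19 tested, 2 were higher in the progenitor than in the myofibroblastic state, Htra1 (477 against 170 CPM) and Foxo1 (55.8 against 17.3 CPM). A further 6 were lower, against 5.25% of all genes tested higher and 10.1% lower. Socs2, Pappa, Stc2, Irs2 and Foxo3 were among those lower; Pappa had 0 UMIs in 55 progenitor cells and Stc2 stood at 7.44 against 41.0 CPM. Pappa and Stc2 thus lay in the same state as Igfbp2 and Igfbp3, while Igfbp4, whose product is the best known substrate of PAPP-A, was present in all states. Between the libraries 7 of 19 pathway genes tested in fibroblast-like cells were higher in the Met-1 transplant (among them Ghr, Socs2, Insr, Pappa, Stc2 and Foxo3) and 0 lower, where 21.6% of all genes were higher. Insr and Pappa are in this count by CPM + 10 alone, since both had 0 UMIs in the PyMT cells and Met-1 levels under the 24.4 CPM that this allows. Stc2 and Foxo3, also at 0 UMIs there, stood at 1.30-fold and 1.59-fold of that level, which rests on 3 counts. Luminal-like cells were higher in the Met-1 transplant in 2 of 8 pathway genes tested, Pik3r1 among them, against 6.19% of all genes tested. Macrophage-like cells were higher in 1 of 12, Irs2, against 5.96%. T-like cells were higher in 2 of 11, Stat5b and Irs2, against 9.87%. In each of these classes 0 pathway genes were lower, against 8.01%, 1.13% and 2.91% of all genes tested.

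The genes whose log2(CPM + 10) was most like each of the 9 were found over the 14 class levels of the libraries, among 10122 genes. Fibroblast-like cells entered as a whole class, so these values do not hold the split by state. The levels share library and depth, so r is a description. Igf1 was most like Olfml3 (r of 0.96), Ccl8 and Emilin1, Igf1r like Ppp1r2 (0.93), Steap4 and Csf1, and Igf2r like Ncald (0.90), 2310009B15Rik and Srp19. Igfbp2 was most like Ltbp2 (0.93), Gm266 and Ptn, Igfbp3 like Gfra1 (0.98), Tenm3 and F830016B08Rik, and Igfbp4 like Fbln5 (0.95), Tcea3 and Fscn1. Igfbp5 was most like Boc (0.98), Efna5 and Efs, Igfbp6 like Gpc3 (0.98), Tnfaip6 and Megf9, and Igfbp7 like Mpdz (0.99), Igsf10 and Gulp1. Among the 9 genes themselves r was 0.85 for Igfbp4 and Igfbp7, 0.75 for Igfbp3 and Igfbp7 and 0.73 for Igf1r and Igfbp6, the latter pair both high in neutrophil-like cells, and 0.29 for Igfbp5 and Igfbp6.

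Igf1, Igf2r and Igfbp7 overlap annotated genes on the other strand (Igf1os; Airn; Polr2b and Gm34648), and no source used here says whether counting used strand, so reads of such a pair may not have been told apart. The other 6 genes overlap no annotated gene.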

How the data were processed

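Each library was deposited as a matrix of whole-number UMI counts per gene and barcode, which the authors made with Cell Ranger 3.1.0 against mm10, per the submitters' processing notes. Annotation release and barcode filter are not named there. Kept barcodes had 500 UMIs and 200 genes or more, with no more than 10% from 13 mitochondrial genes, and Scrublet doublet calls (16 and 1) were left out. Classes and states were set from marker UMIs (2 per marker, at least 3 markers and 33.3% of the list, largest share). UMIs were summed per class and divided by its total. Ratios were called at 2-fold of CPM + 10 with 50 UMIs on 1 side. Intervals are exact Poisson, conditional binomial or Clopper-Pearson. A count of 0 was given as the level of 3 counts. Shares at fixed depth used cells thinned to 1000 UMIs. The ratio calculation was run on simulated counts with known changes, which checks the calculation and not the ratios reported here. Coordinates are from GENCODE M21.

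The 9 genes, the marker and pathway lists and the rules were chosen with earlier results of these data known, and the marker gate after looking at marker counts. Named were all 9 genes, pathway genes past 2-fold in a comparison described, Igf2 and Insr, and the 3 genes most like each of the 9. 1 pathway gene is not reported here. Python 3.11.15, scanpy 1.11.5, scipy 1.17.1, numpy 2.4.6 and pandas 2.3.3 were used.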

Additional observations from a re-analysis of the deposited data

Results flagged for a closer look

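Igfbp2 had opposite directions in the 2 libraries. As log2 of CPM + 10 against the other kept cells, it was 3.93 in Met-1 fibroblast-like cells and -4.27 in PyMT ones, and -2.07 and 3.33 in luminal-like cells. Igfbp4 in luminal-like cells stood at -4.51 in the Met-1 transplant and 1.14 in the PyMT tumour. With 1 library per group these differences were not tested. The PyMT fibroblast-like value rests on 11 cells with 0 Igfbp2 UMIs.

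UMIs of the 9 genes were also present in barcodes that the filters left out. The 332 Met-1 barcodes held 22 UMIs of Igf1, 25 of Igf1r, 76 of Igf2r, 19 of Igfbp2, 56 of Igfbp3, 155 of Igfbp4, 218 of Igfbp5, 14 of Igfbp6 and 542 of Igfbp7. The 30 PyMT barcodes held 6 of Igf1r, 21 of Igfbp2, 26 of Igfbp4, 68 of Igfbp5 and 13 of Igfbp6. These barcodes were mostly above the limit on mitochondrial UMIs (316 and 27).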

How the results depend on the processing

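Of 41 ratios of the 9 genes past 2-fold, recomputed under 12 alternatives (487 values), 479 kept their sign and 462 stayed past 2-fold, whether or not the gene still reached 50 UMIs. These counts include alternatives that could not fail. Dropping the minimum of UMIs leaves each ratio as it is, and adding less to CPM can only move a ratio further from no difference. Leiden clusters computed without the 9 genes, at resolution 0.5, drew the fibroblast and mural classes differently. They put 283 cells in the mural cluster, 99 of them mural-like by markers, and left 85 fibroblast-like Met-1 cells, with no cluster named myofibroblastic, so no progenitor to myofibroblastic ratio was had there. In that setting fibroblast-like cells were higher in 5 genes and lower in 2, with Igfbp2 at -2.17 and Igfbp3 at -1.30 (log2 of CPM + 10), and mural-like cells were higher in 6 and lower in 0, with Igf1 at 0.96, Igfbp2 at 4.09 and Igfbp4 at 3.21. Between the libraries fibroblast-like cells were then higher in 2 genes (Igf1 and Igf2r) and lower in 0, with Igfbp2 at 0.32 and Igfbp3 at 1.71 under the minimum of 50 UMIs, Igfbp5 at -0.40 and Igfbp6 at -0.62. At resolution 1, added after seeing the data, 215 of 226 fibroblast-cluster cells and 98 of 142 mural-cluster cells had the class given by markers, all 9 genes were again higher in fibroblast-like cells, and the progenitor log2 ratio was 3.15 for Igfbp5 but -0.75 for Igfbp7, no longer past 2-fold. No cluster was named for the Gdf10 state at resolution 1. At resolution 0.5 a Gdf10 cluster of 40 Met-1 cells held 18 of the 22 cells of that state. Ratios of the Gdf10 state are not among the 41.

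Between the libraries, luminal-like cells were higher in 2 genes and Igfbp7 turned to 1.03 under both clusterings and when cells with markers of 2 classes were kept. In the Met-1 transplant luminal-like cells were higher in 1 gene only, Igfbp5, when the cell with most UMIs of the gene was left out or values were centred on genes with 50 UMIs in both. Macrophage-like cells were lower in 1 gene at 4 UMIs per marker and under both clusterings. Outside the changed cluster membership the cause was not tested. No paired analysis was possible because each group has 1 library. The 11 PyMT fibroblast-like cells (123188 UMIs) limit all fibroblast comparisons between the libraries.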
